A study of Mus musculus with 3 samples.

Results

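The genes described here are 35 genes of mitosis and the mitotic spindle, out of 16742 genes listed in at least 1 of 3 RNA-seq libraries of mouse bone marrow cells. They were chosen for their function, by a list of gene symbols matched to NCBI Gene IDs, and the rule uses no measured value, although the list was drawn up with earlier results of these data known. All 35 were listed in every library, with expected counts between 47 and 14079, so none was lost to a filter on low values. The list covers the spindle checkpoint (5 genes), the kinases and cyclins of mitotic entry (7), the chromosomal passenger complex (4), the NDC80 complex of the kinetochore (4), the centromere (3), spindle motors and assembly factors (7), the promotion of anaphase (3) and chromosome structure (2).

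The study asked how the transcriptome of a mouse model of acute promyelocytic leukemia (APL) driven by TBLR1-RARα (TR), a rare fusion of the retinoic acid receptor RARα, differs from that of normal progenitors. The control library came from lin- bone marrow cells, those left after depletion of cells with mature lineage markers, of wild-type mice. The TR1 and TR9 libraries came from sorted GFP+ bone marrow cells of leukemia mice of genotype TBLR1-RARa, in the third generation of serial transplantation. All mice were C57BL/6 and 6 to 8 weeks old by the labels, and each library pooled 3 mice. The fusion was carried into lin- cells by a retrovirus that expresses GFP from the same transcript, and each TR line goes back to 1 primary leukemia mouse. Hence TR1 and TR9 are 2 leukemias rather than replicates, and each group has 1 library. Disease cannot be told apart from the way the cells were isolated (GFP sorting against lineage depletion). Nor can it be told apart from retroviral transduction and serial transplantation, which the control cells did not go through. No difference below has a replicate check.

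During mitosis, CDK1 bound to cyclin B drives the cell out of G2, microtubules form a spindle, and kinetochores built on centromeric chromatin attach each chromosome to it. The spindle checkpoint holds back the anaphase-promoting complex (APC/C) until attachment is complete, after which cyclin B and securin are destroyed and the sister chromatids part. Most of these genes are transcribed mainly in G2 and M phase, under the MuvB complex with B-MYB and FOXM1, which reach their promoters through the cell cycle homology region (CHR), while the factor NF-Y binds CCAAT boxes nearby. Their transcripts are widely used as a sign of dividing cells. In bulk libraries fewer dividing cells and less RNA per cell cannot be told apart.

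Promoter sequences are shown first, because the letters that the members share there were not used to choose them. RefSeq windows of GRCm38.p6 were at hand for 28 of the 35 genes, and the 250 bases before each annotated start were searched on both strands for CCAAT and for the CHR, which reads TTTGAA in its usual form and TTCGAA in a variant form. Cdc25c, Aurkb, Incenp, Spc24, Kif20a, Tpx2 and Ccna2 had no window. At least 1 CCAAT stood in 21 of the 28 members (75%), against 37.5% of all 27025 genes with a window. At least 2 CCAAT stood in 15 members (53.6%), against 11.5% of all genes, and a CHR in 11 members (39.3%), against 19.6%. Both a CHR and at least 2 CCAAT were found in 7 members (25%), against 2.01% of all genes. Of the 48 CCAAT boxes in the member promoters, 34 began within 100 bases of the start.

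The stretches below hold these motifs for 7 of the genes whose CCAAT boxes were regularly spaced or flanked a CHR, and for the pair of members with the highest FPKM in control. They are written 5′ to 3′ on the strand of the gene. Capitals mark the CCAAT boxes and the CHR matches. Where a motif lies on the opposite strand, CCAAT is read as ATTGG and the usual CHR form as TTCAAA.
Ccnb1: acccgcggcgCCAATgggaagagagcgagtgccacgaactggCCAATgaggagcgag
Aurka: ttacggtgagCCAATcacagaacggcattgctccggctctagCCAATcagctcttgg
Spc25: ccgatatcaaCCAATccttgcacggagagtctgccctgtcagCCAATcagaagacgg
Cdk1: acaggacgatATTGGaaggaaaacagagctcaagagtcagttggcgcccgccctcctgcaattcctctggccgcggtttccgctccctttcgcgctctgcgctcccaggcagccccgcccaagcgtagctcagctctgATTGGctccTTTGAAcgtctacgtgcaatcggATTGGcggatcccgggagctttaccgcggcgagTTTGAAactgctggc
Ccnb2: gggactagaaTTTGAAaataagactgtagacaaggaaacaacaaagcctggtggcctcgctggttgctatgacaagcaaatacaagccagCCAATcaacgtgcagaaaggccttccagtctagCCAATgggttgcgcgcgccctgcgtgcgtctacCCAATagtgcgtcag
Cdc20: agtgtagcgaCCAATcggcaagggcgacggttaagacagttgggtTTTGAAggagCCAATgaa
Bub3: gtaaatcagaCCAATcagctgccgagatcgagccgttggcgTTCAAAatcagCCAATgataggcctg
Top2a: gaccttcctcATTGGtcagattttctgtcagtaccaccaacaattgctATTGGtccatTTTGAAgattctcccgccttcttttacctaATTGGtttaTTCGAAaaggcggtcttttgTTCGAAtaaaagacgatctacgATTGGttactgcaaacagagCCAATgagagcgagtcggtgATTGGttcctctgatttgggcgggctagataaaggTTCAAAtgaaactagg
Mki67: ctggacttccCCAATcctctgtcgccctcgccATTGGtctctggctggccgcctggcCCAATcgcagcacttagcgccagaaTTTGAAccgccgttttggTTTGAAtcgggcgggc

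The cyclin B1 gene Ccnb1 carries its stretch at chr13:100786539-100786595 (minus strand), the kinase gene Aurka at chr2:172370575-172370631 (minus strand) and the kinetochore gene Spc25 at chr2:69206222-69206278 (minus strand). In each of these, the neighbouring CCAAT boxes begin 32 bases apart. Cdk1, at chr10:69352913-69353130 (minus strand), has a pair 32 bases apart with a CHR between them and a further CHR nearer the start. Ccnb2, at chr9:70421561-70421731 (minus strand), has 3 boxes at steps of 33 bases. In Cdc20, at chr4:118437344-118437406 (minus strand), and in Bub3, at chr7:131560286-131560352 (plus strand), a CHR lies between a pair of boxes. Top2a, at chr11:99024197-99024426 (minus strand), holds 6 CCAAT boxes and 4 CHR matches, the largest number of matches among the 28 members, and Mki67, at chr7:135716462-135716577 (minus strand), holds 3 and 2. Neighbouring boxes 31 to 34 bases apart were found in 7 of 28 members (25%) and in 1.2% of all genes, a spacing chosen after the distances were seen. Among 33 DNA replication genes with a window, 60.6% held a CCAAT, 33.3% at least 2 CCAAT, 18.2% a CHR and 6.06% a CHR with at least 2 CCAAT. A match is a description of letters and not of a bound site, and for Mad2l1, Birc5, Ndc80, Nuf2, Nusap1 and Pttg1 it can only be said that these letters do not occur in the window.

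**Figure D1:**
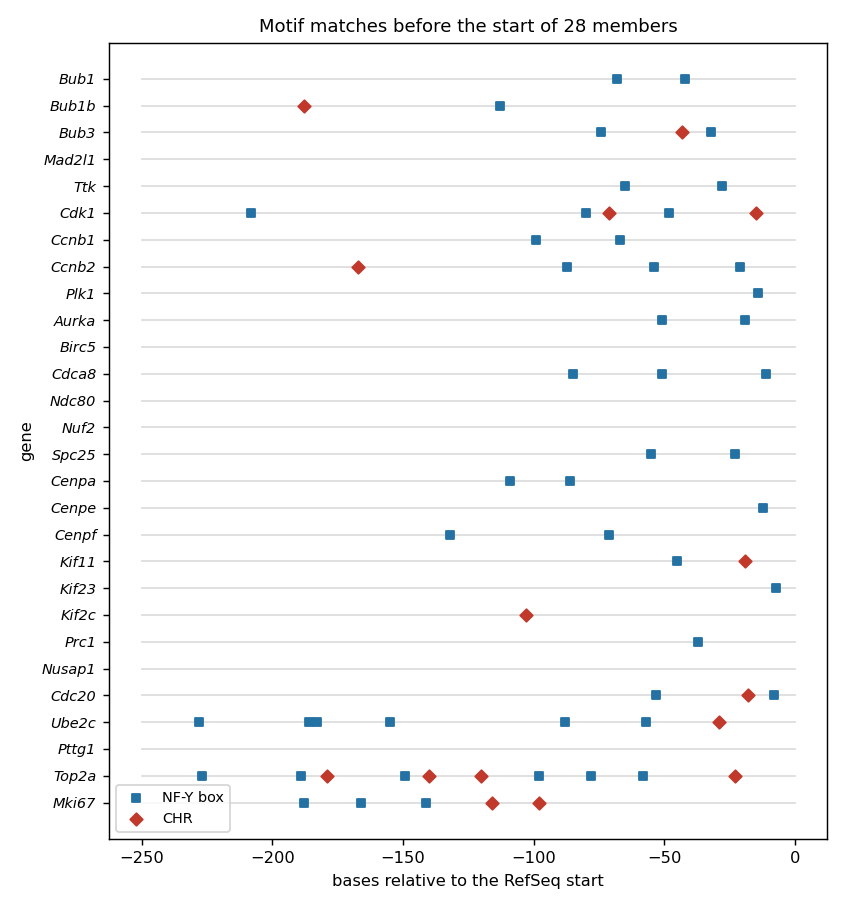
Position of each match in the bases before the RefSeq start of 28 member genes; the x axis is the distance from the start in bases, squares are CCAAT boxes on either strand and diamonds are CHR matches. Of 48 boxes, 34 lie within 100 bases of the start, and Top2a holds the most matches. For Bub3 and Prc1, which have 2 annotated starts, the first window is drawn.

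Expected counts, the read numbers that RSEM assigns to a gene, summed to between 5129662 and 5571409 per library. The FPKM is that count scaled for transcript length and library total, so it allows levels of different genes to be compared. Several marker lists of other cell types differed between the libraries by more than the mitosis genes did. Summed over a list and scaled to a library total of 1000000 (CPM), erythroid markers stood at 5046, 189 and 166 CPM in control, TR1 and TR9, with all 13 listed genes downregulated in each and Alas2 at 0 in both TR libraries. Megakaryocyte markers summed to 1474, 13.9 and 12.02 CPM, with 10 of 10 downregulated in each and Pf4, Gp6 and Treml1 at 0 in both. Mast cell, basophil and eosinophil markers summed to 1946, 79.0 and 88.5 (7 of 7 downregulated in each). Stem and progenitor markers summed to 980, 349 and 467, with 8 of 10 downregulated and 2 upregulated in TR1, 6 and 1 in TR9, and stroma markers to 2551, 608 and 1066, with 4 of 8 downregulated and 2 upregulated in each. In contrast, promyelocyte primary granule markers summed to 7690, 32303 and 27791, with 5 of 5 upregulated in TR1 and 4 in TR9, and late granulocyte markers to 90.4, 10909 and 6205, with 10 of 10 and 7. B lineage markers summed to 16.6, 13.8 and 169, with Cd79a and Cd79b at 0 in both TR libraries. Of 7 such genes, 1 was downregulated in each, and 1 was upregulated in TR1 and 2 in TR9. T and NK markers summed to 12.8, 6.16 and 7.84, with 1 of 8 downregulated in each and none upregulated. Over all genes, 13.0% were downregulated and 8.09% upregulated in TR1, and 10.8% and 9.37% in TR9. These marker levels moved with the same libraries as the mitosis genes, and their part in the results was not tested. Rara, the receptor gene in the fusion, had 58.9, 1168 and 359 expected counts in control, TR1 and TR9, and Tbl1xr1, the partner gene, had 854, 1186 and 981. Reads of the retroviral fusion were not separated from those of the mouse genes.

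The mitosis genes were expressed in all 3 libraries and nearly all were lower in both leukemias than in control. Together they made up 8579.9, 3779 and 4417 CPM in control, TR1 and TR9. The TR1 sum was 44.0% of control (95% interval 43.3 to 44.8) and the TR9 sum 51.5% (50.7 to 52.3), where the intervals, as all below, cover counting error only. The median member was at 57.0, 26.02 and 26.5 FPKM in control, TR1 and TR9. Mki67, the proliferation antigen that coats mitotic chromosomes, was the highest of the 35 in every library and the phosphatase gene Cdc25c the lowest. The order of the 35 genes by FPKM was broadly alike in the libraries. Spearman's rho was 0.918 between TR1 and control, 0.886 between TR9 and control and 0.946 between TR9 and TR1. The Pearson r of log2 FPKM was 0.933, 0.906 and 0.959 for the same pairs. Both are given as a description of genes that share libraries. Single genes moved further, such as Nusap1 from rank 16 in control to 29 in TR9.

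**Figure D2:**
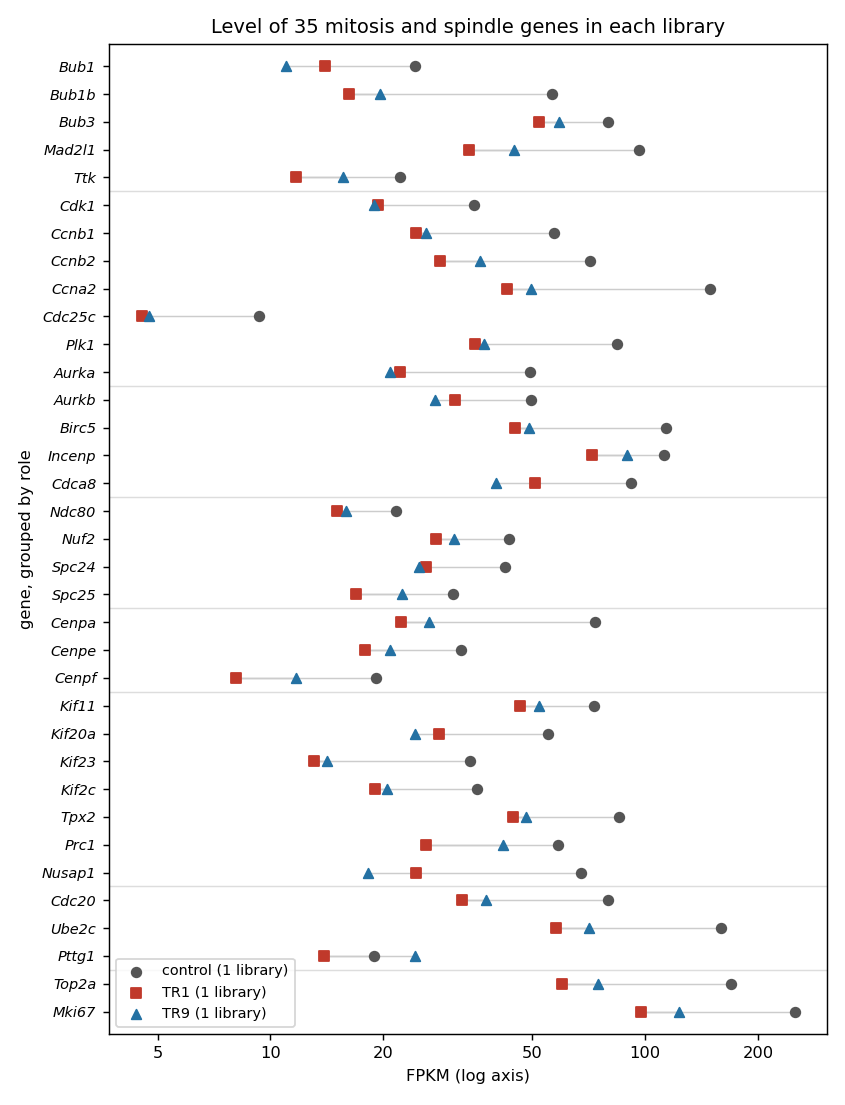
Level of each of the 35 genes in the control (circle), TR1 (square) and TR9 (triangle) library, 1 library each; the x axis is FPKM on a log scale and the y axis lists the genes by role, with lines between roles. The circle is the rightmost point for every gene but Pttg1, where TR9 (24.2 FPKM) lies above control (18.9).

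Ratios of FPKM to control were taken on the log2 scale, and the expected counts of both libraries were compared by a conditional exact Poisson test adjusted over all genes for the false discovery rate (FDR). A gene was called differentially expressed (a DEG, downregulated or upregulated) at an FDR of at most 0.001 and a ratio of at least 2-fold. Such a test compares the reads of 2 libraries and not the conditions. In TR1, 18 of the 35 genes were downregulated, whereas 13.0% of all 16282 genes tested were. None was upregulated, against 8.09% of all genes. In TR9, 17 of 35 were downregulated, against 10.8% of 16303 genes, and none was upregulated, against 9.37%. The members are well-expressed genes, and among genes with a mean of at least 50 counts, a limit chosen after the values were seen and passed by all 35, the share downregulated was 15.3% in TR1 and 13.2% in TR9. TR1 and TR9 are set against the same control library, so their lists of DEGs are not independent.

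The shift covered nearly the whole list and not only the DEGs. In TR1 all 35 log2 ratios were below 0, as were 61.6% of those of all genes, and 34 genes were lower at the FDR irrespective of size, against 26.8% of all genes. In TR9 34 ratios were below 0, against 54.4%, and 32 genes were lower at the FDR, against 22.2%. The genes that missed the FDR were Pttg1 in TR1, and Pttg1, Ndc80 and Spc25 in TR9. For TR1 the median log2 ratio was −1.04, with quartiles at −1.35 and −0.82, while the median of all genes was −0.29. In TR9 the median was −0.98, with quartiles at −1.18 and −0.57, and that of all genes −0.12. Under TMM scaling, which sets the bulk of genes level and takes out a shift of −0.25 in TR1 and −0.11 in TR9, 13 and 14 members stayed downregulated, beside 9.77% and 9.22% of all genes. All 35 ratios in TR1 and 34 in TR9 stayed below 0 in each of the 3 other scalings tried. However, when a biological coefficient of variation of 0.2 was assumed in edgeR's exact test, few DEGs were left. These were Bub1b and Ccna2 in TR1 and Nusap1 in TR9, out of 35 members. Of all genes, 6.09% were downregulated in TR1 and 5.09% in TR9 at this setting. Most calls of members thus ended once such variation was assumed. The 2 and 1 calls left are too few for their shares to be set against those of all genes. The log2 ratios themselves were the same at this setting, with medians of −1.04 and −0.98.

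**Figure D3:**
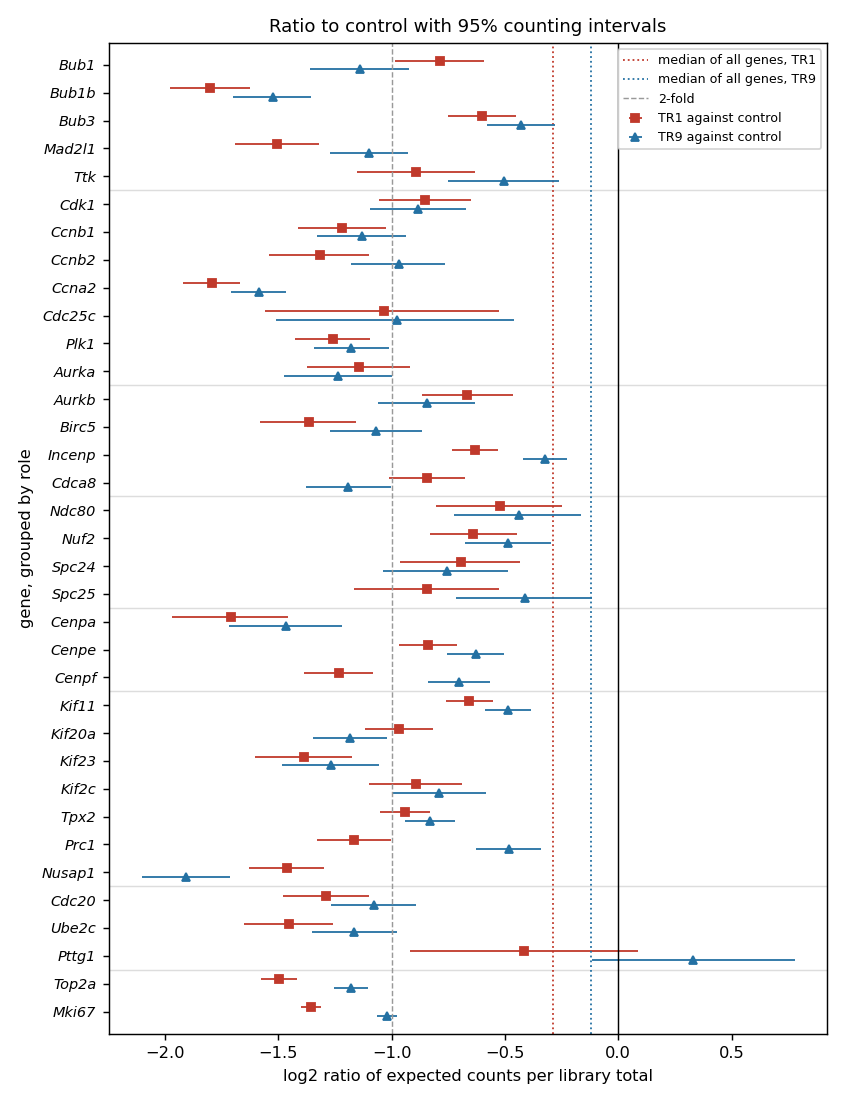
Log2 ratio of expected counts per library total to control for the 35 genes in TR1 (squares) and TR9 (triangles), with 95% exact intervals of counting error as bars. Dotted lines are the medians over all genes of the FPKM ratios (−0.29 and −0.12). The medians of their count ratios, not drawn, are −0.20 and −0.025. The dashed line is 2-fold lower, and only Pttg1 has intervals that span 0.

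The kinases and cyclins of mitotic entry held the largest number of downregulated genes among the 8 groups, though no group has more genes. Of these, 6 of 7 (85.7%) were downregulated in TR1 and 4 of 7 (57.1%) in TR9, against 13.0% and 10.8% of all genes. The median log2 ratio was −1.22 and −1.13. By share, chromosome structure stood higher in both (100%), and anaphase promotion (66.7%) and the spindle checkpoint (60.0%) stood higher in TR9. Ccna2, the cyclin A gene that acts in S phase and G2, fell from 149 FPKM in control to 42.8 in TR1 and 49.6 in TR9, log2 ratios of −1.80 (95% interval −1.92 to −1.67) and −1.59 (−1.71 to −1.47). Ccnb1, whose product activates CDK1, fell from 57.0 FPKM to 24.41 and 25.96 (−1.22 and −1.13). Both TR libraries thus held less than 1 in 2 of the control level of these cyclins. Ccnb2, the second B-type cyclin, was at 71.1, 28.4 and 36.3 FPKM in control, TR1 and TR9, and was downregulated in TR1 (−1.32, −1.54 to −1.10) but just short of 2-fold in TR9 (−0.97, −1.18 to −0.76). Cdk1 itself, the catalytic partner, was at 34.97, 19.3 and 18.9 FPKM, and with −0.86 (−1.06 to −0.65) and −0.89 (−1.10 to −0.67) it passed the FDR without reaching 2-fold in either library. The intervals of Ccna2 lay wholly below those of Cdk1 in both libraries, whereas those of Ccnb2 and Cdk1 overlapped in TR9.

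Plk1, a kinase of entry, centrosome maturation and cytokinesis, fell from 84.3 FPKM in control to 35.1 in TR1 and 37.2 in TR9 (−1.26, −1.43 to −1.10, and −1.18, −1.34 to −1.01). Aurka, the kinase that activates PLK1 and builds spindle poles, fell from 49.3 FPKM to 22.2 and 20.9 (−1.15, −1.37 to −0.92, and −1.24, −1.48 to −0.999). For both kinases, the intervals of TR1 and TR9 overlapped. Cdc25c, which removes inhibitory phosphates from CDK1, had 99, 49 and 47 counts in control, TR1 and TR9, and its log2 ratios of −1.04 (−1.56 to −0.53) and −0.98 (−1.51 to −0.46) carry the widest intervals of this group. With TMM scaling, Cdc25c, Ccnb1 and Aurka were no longer downregulated in TR1.

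In the spindle checkpoint, 2 of 5 genes were downregulated in TR1 and 3 of 5 in TR9, and the median log2 ratio was −0.92 and −1.10. Bub1b encodes BUBR1, which with MAD2, BUB3 and CDC20 forms the inhibitor of the APC/C, and it fell from 56.5 FPKM in control to 16.2 in TR1 and 19.6 in TR9. Its log2 ratio of −1.80 (−1.98 to −1.62) in TR1 was the lowest among the 35 genes there, and in TR9 the ratio was −1.53 (−1.70 to −1.36). Mad2l1, which encodes MAD2, fell from 96.2 FPKM to 33.8 and 44.8 (−1.51, −1.69 to −1.32, and −1.10, −1.27 to −0.93), and its TR9 call ended with TMM scaling. Bub3, the third component, was at 79.5, 52.2 and 59.0 FPKM and was not downregulated (−0.60, −0.75 to −0.45, and −0.43, −0.58 to −0.28). The intervals of Bub3 did not overlap those of its partners Bub1b and Mad2l1 in either library. The transcripts of these subunits thus stood at unequal distances from control, and protein was not measured in these libraries.

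Both checkpoint kinases were lower at the FDR in each library. Bub1, which marks centromeric chromatin, was at 24.3, 14.0 and 11.0 FPKM in control, TR1 and TR9, and was downregulated in TR9 (−1.14, −1.36 to −0.92) and not in TR1 (−0.79, −0.99 to −0.59). Ttk, the kinase MPS1 that starts checkpoint signalling, was at 22.2, 11.7 and 15.6 FPKM (−0.92, −1.15 to −0.63, and −0.51, −0.75 to −0.26), below 2-fold in both.

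The chromosomal passenger complex, which corrects faulty attachments and guides cytokinesis, had 1 of 4 genes downregulated in TR1 and 2 of 4 in TR9, with a median log2 ratio of −0.76 and −1.02. Birc5 (survivin) fell from 114 FPKM in control to 44.9 in TR1 and 49.0 in TR9 (−1.34 and −1.21). On counts the log2 ratio of Birc5 was −1.37 (−1.58 to −1.16) in TR1 and −1.07 (−1.27 to −0.87) in TR9. Its expected counts, which are not whole numbers, were 655, 258 and 292. Cdca8 (borealin), which binds survivin, was at 91.4, 50.8 and 40.0 FPKM and was downregulated in TR9 (−1.19, −1.38 to −1.005) and short of 2-fold in TR1 (−0.85, −1.01 to −0.68). Aurkb, the kinase of the complex, was at 49.5, 31.1 and 27.5 FPKM (−0.67, −0.87 to −0.47, and −0.85, −1.06 to −0.63). Incenp, the scaffold, was at 112, 72.1 and 89.5 FPKM, and its TR9 ratio of −0.32 (−0.42 to −0.22) was the nearest to 0 of the genes lower at the FDR. As in the checkpoint, transcripts for subunits of one complex stood at different distances from control.

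The NDC80 complex, the microtubule-binding part of the kinetochore, had no downregulated gene in either library, with a median log2 ratio of −0.67 and −0.47. Ndc80 was at 21.7, 15.0 and 15.95 FPKM in control, TR1 and TR9 (−0.53 and −0.44), and Nuf2 at 43.3, 27.7 and 30.9 FPKM (−0.64 and −0.49). Spc24 was at 42.3, 26.02 and 24.99 FPKM (−0.70 and −0.76), and Spc25 at 30.8, 17.0 and 22.4 FPKM (−0.86 and −0.46). The intervals of all 4 genes lay below 0 in both libraries, the nearest being that of Spc25 in TR9 (−0.71 to −0.12).

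Centromere genes ranged more widely. Cenpa, the histone H3 variant that specifies the centromere, fell from 73.3 FPKM in control to 22.3 in TR1 and 26.5 in TR9 (−1.71, −1.97 to −1.46, and −1.47, −1.72 to −1.22). Cenpf, a large protein of the outer kinetochore, fell in TR1 (19.1 to 8.09 FPKM, −1.24, −1.39 to −1.08) and was at 11.7 FPKM in TR9 (−0.70, −0.84 to −0.56). Cenpe, a kinesin that moves chromosomes to the spindle equator, was at 32.2, 17.9 and 20.8 FPKM (−0.84, −0.97 to −0.71, and −0.63, −0.75 to −0.51) and was not downregulated in either. Thus 2 of 3 genes were downregulated in TR1 and 1 of 3 in TR9, with medians of −1.24 and −0.70, and the TR1 call of Cenpf ended with TMM scaling.

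Of the 7 spindle motors and assembly factors, 3 were downregulated in TR1 and 3 in TR9, with a median log2 ratio of −0.97 and −0.83. Nusap1, which bundles spindle microtubules, fell from 67.6 FPKM in control to 24.4 in TR1 and 18.3 in TR9, and its TR9 ratio of −1.89 (−2.10 to −1.72) was the lowest of the list there (−1.47 in TR1). Kif23, a kinesin of the central spindle needed for cytokinesis, fell from 34.2 FPKM to 13.0 and 14.2 (−1.39, −1.60 to −1.17, and −1.27, −1.48 to −1.06). Prc1, which cross-links the central spindle on which KIF23 acts, fell from 58.5 FPKM to 25.98 in TR1 (−1.17, −1.33 to −1.002, a call that ended with TMM scaling) and was at 41.8 FPKM in TR9 (−0.49, −0.63 to −0.34). The intervals of these partners in cytokinesis overlapped in TR1 and did not in TR9. Kif20a, a further cytokinesis kinesin, was at 55.1, 28.2 and 24.3 FPKM and was downregulated in TR9 (−1.18, −1.35 to −1.02) and just short of 2-fold in TR1 (−0.97, −1.12 to −0.82). The other three factors, which build and shape the bipolar spindle, reached 2-fold in neither library. Kif11, the motor that pushes spindle poles apart, was at 73.2, 46.3 and 52.1 FPKM (−0.66 and −0.49), Tpx2, which nucleates microtubules and activates Aurora A, at 85.3, 44.5 and 48.1 FPKM (−0.94 and −0.83), and Kif2c, a microtubule depolymerase, at 35.5, 19.0 and 20.5 FPKM (−0.90 and −0.79).

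Genes that promote anaphase held both large changes and the exception of the list. Cdc20, the activator of the APC/C that the checkpoint restrains, fell from 79.6 FPKM in control to 32.5 in TR1 and 37.6 in TR9 (−1.29, −1.48 to −1.10, and −1.08, −1.27 to −0.89), and its TR9 call ended with TMM scaling. Ube2c, its ubiquitin-conjugating enzyme, fell from 159 FPKM to 57.9 and 70.8 (−1.46, −1.65 to −1.26, and −1.17, −1.35 to −0.98). Pttg1 encodes securin, which blocks separase until the APC/C destroys it, and had 80.0, 60.9 and 94.0 expected counts in control, TR1 and TR9. On the log2 scale it stood at −0.45 (−0.92 to 0.09) in TR1 and at 0.36 (−0.12 to 0.78) in TR9, so that neither library could be set apart from control at this depth. Pttg1 also had the second lowest FPKM of the 35 genes in control, and its counts are not whole.

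The pair of chromosome genes fell in both libraries. Top2a, the topoisomerase that untangles sister chromatids, fell from 170 FPKM in control to 60.0 in TR1 and 74.8 in TR9 (−1.50, −1.58 to −1.42, and −1.18, −1.25 to −1.10). Mki67 fell from 250.8 FPKM to 97.8 and 123 (−1.36, −1.40 to −1.31, and −1.02, −1.06 to −0.98) and had 14079, 5586 and 6484 expected counts, the most of the list. Its TR9 call ended with TMM and with median of ratios scaling. Because these genes hold a large share of the reads, the summed level was also taken without them, and it was then 5122 CPM in control, 48.0% of that in TR1 and 53.9% in TR9.

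TR9 was then compared with TR1 directly, which does not involve the control library. No member was a DEG in either direction, against 6.65% of 15706 genes tested. At the FDR alone 6 members differed, against 19.6% of all genes. Mki67 (0.34, 0.28 to 0.39), Top2a (0.32, 0.22 to 0.41), Incenp (0.31, 0.20 to 0.42), Cenpf (0.53, 0.36 to 0.70) and Prc1 (0.68, 0.50 to 0.86) were higher in TR9, and Nusap1 (−0.42, −0.67 to −0.22) was lower. The median log2 ratio was 0.17 for the members and 0.13 for all genes, and 27 of 35 members were above 0, against 60.2% of all genes. With TMM scaling 16 members lay below 0 in place of 8, so the direction of the small ratios depends on scaling. Pttg1 had the highest ratio, 0.80 with an interval of 0.26 to 1.23, and missed the FDR. Bub1 (−0.35, −0.59 to −0.11), Cdca8 (−0.35, −0.56 to −0.14) and Kif20a (−0.21, −0.40 to −0.03) had intervals below 0 without passing the FDR. In all, intervals lay above 0 for 17 members, below 0 for 4 and across 0 for 14.

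**Figure D4:**
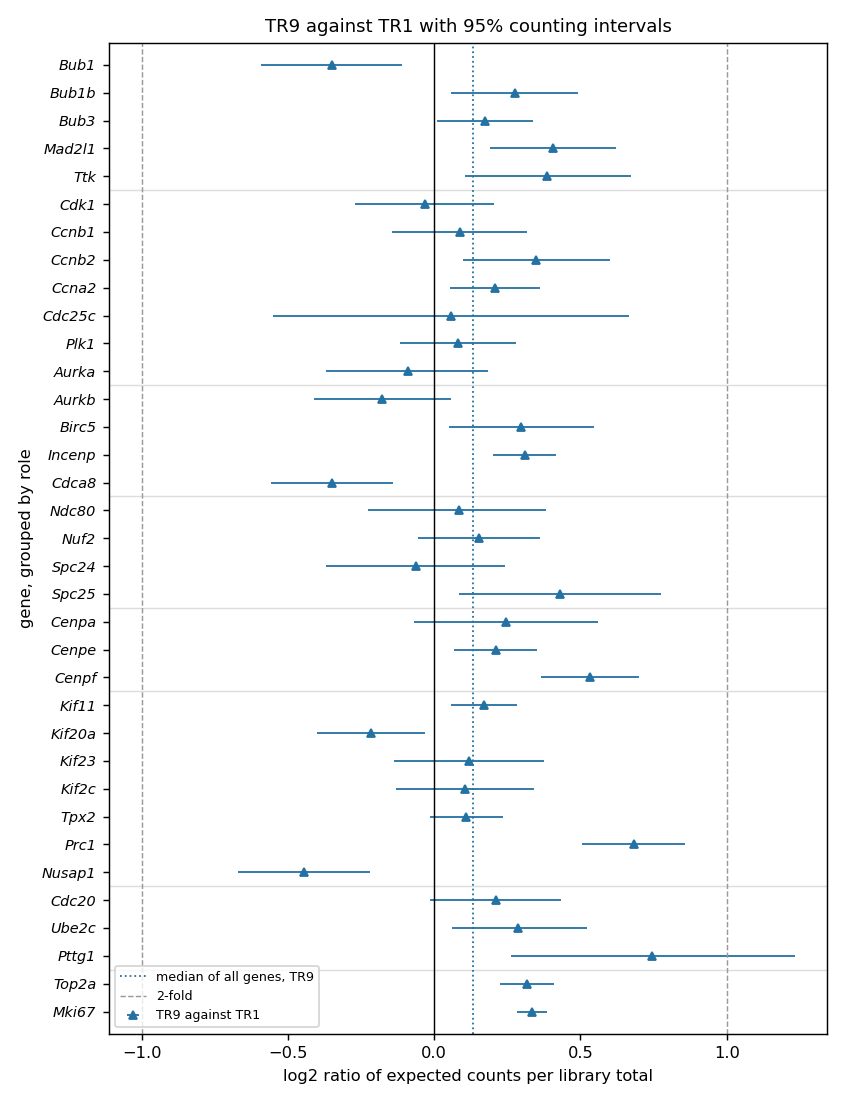
Log2 ratio of expected counts per library total in TR9 against TR1 for the 35 genes, with 95% exact intervals of counting error. The dotted line is the median over all genes of the FPKM ratios (0.13), and that of their count ratios, not drawn, is 0.12. The dashed lines are 2-fold. No point reaches 2-fold, Prc1 and Pttg1 lie furthest to the right and Nusap1 furthest to the left.

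Other genes of the same processes, taken from lists of function, also had medians below that of all genes, most of them nearer to it than that of the 35. Among 111 further mitotic genes in 5 lists, 27 (24.3%) were downregulated and 1 upregulated in TR1, 19 (17.1%) and 0 in TR9, and the median log2 ratio was −0.64 and −0.61. The shares over all genes, to be read beside these and the list counts that follow, were 13.0% downregulated and 8.09% upregulated in TR1, and 10.8% and 9.37% in TR9. In the list of other kinetochore and centromere genes, 6 of 31 were downregulated in TR1 and 6 in TR9. Knl1, the scaffold on which BUB1 and BUBR1 dock, had 1044, 166 and 194 counts in control, TR1 and TR9, and its log2 ratios of −2.68 and −2.33 were below those of all 35 members. Oip5, a loading factor of the CENPA protein, had 158, 55 and 39 counts (−1.54 and −1.92), and Cenpi 264, 115 and 113 (−1.22 and −1.13, the TR1 call ending with TMM scaling). Of 28 spindle, centrosome and cytokinesis genes, 12 were downregulated in TR1 and 8 in TR9, among them the kinesin Kif18a (228, 49 and 57 counts, −2.24 and −1.91), the spindle pole gene Aspm (1409, 372 and 570, −1.95 and −1.21) and the microtubule polymerase gene Ckap5 (1534, 510 and 574, −1.61 and −1.32). Nek6, a mitotic kinase, was the upregulated gene, with 35, 117 and 34 counts in control, TR1 and TR9.

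The other three lists of mitotic genes had medians nearer to that of all genes. Of 18 genes of the APC/C and its regulators, 2 (11.1%) were downregulated in TR1 and 1 (5.56%) in TR9 (medians −0.47 and −0.34). These counts are too small for their shares to be set apart from those of all genes (13.0% in TR1 and 10.8% in TR9). The gene downregulated in both was the coactivator Fzr1, with 409, 180 and 187 counts (−1.21 and −1.03). Of 19 condensin and cohesin genes, 4 were downregulated in TR1 and 2 in TR9 (medians −0.64 and −0.48), among them the condensin subunits Ncaph (679, 252 and 270 counts, −1.46 and −1.23) and Ncapg (713, 346 and 302, −1.07 and −1.14). Of 15 further mitotic regulators, 3 and 2 were downregulated (medians −0.47 and −0.28), among them the cyclin F gene Ccnf (524, 221 and 216 counts, −1.27 and −1.18) and Mastl, the Greatwall kinase gene (172, 80 and 79, −1.13 and −1.03). With TMM scaling the calls of Fzr1 and Mastl ended in both libraries and that of Ncapg in TR1.

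The transcription factors that act on these genes were mostly not DEGs, with 2 of 21 (9.52%) downregulated in TR1, 3 (14.3%) in TR9 and medians of −0.60 and −0.41. These shares are near the 13.0% and 10.8% of all genes. Foxm1 had 647, 459 and 434 counts in control, TR1 and TR9 (−0.52 and −0.48). Mybl2, the B-MYB gene, had 660, 772 and 776 counts (0.20 and 0.33) and was not a DEG. Lin54, the MuvB subunit that contacts the CHR, had 412, 273 and 254 counts (−0.62 and −0.61), and E2f1 364, 209 and 198 (−0.82 and −0.78). E2f4, a repressor of cell cycle genes in resting cells, fell from 1737 counts to 578 and 478 (−1.61 and −1.77). The NF-Y subunit gene Nfya had 873, 461 and 414 counts (a log2 ratio of −0.95 in TR1). It was downregulated in TR9, but with a ratio at the 2-fold limit (−1.0) that was −0.98 when taken on counts.

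DNA replication genes, which are transcribed before mitosis in the cycle, had medians close to those of the mitosis genes. Of 41 such genes, 21 were downregulated in TR1 and 22 in TR9, and the medians were −1.02 and −1.03. Some TR1 ratios were nearer to 2-fold (Mcm4 −1.04, Mcm5 −1.02, Rrm2 −1.04) than the shift of −0.25 that TMM scaling takes out. The number of calls left with TMM scaling was not taken for this list. Together they made up 8313, 4339 and 4221 CPM in control, TR1 and TR9. Ccne1, the cyclin of S phase entry, had 533, 65 and 44 counts in control, TR1 and TR9 (−3.06 and −3.50), the origin licensing gene Cdc6 had 997, 403 and 251 (−1.33 and −1.90), and the polymerase gene Pola1 930, 287 and 331 (−1.72 and −1.39). In the direct comparison of TR9 with TR1, the median was −0.11 for replication genes and 0.17 for the mitosis genes. Among 11 genes of quiescence and CDK inhibition, 2 were downregulated and 3 upregulated in TR1, 2 and 4 in TR9, in a list too short for its shares to be set against those of all genes (13.0% and 8.09%, 10.8% and 9.37%). Tob1, an antiproliferative gene, rose from 76 counts to 206 and 238 (1.41 and 1.74), and Klf2, a transcription factor of quiescent T cells, from 16 to 46 and 101 (1.50 and 2.76), whereas the CDK inhibitor gene Cdkn2c fell from 87 to 16 and 20 (−2.47 and −2.02).

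**Figure D5:**
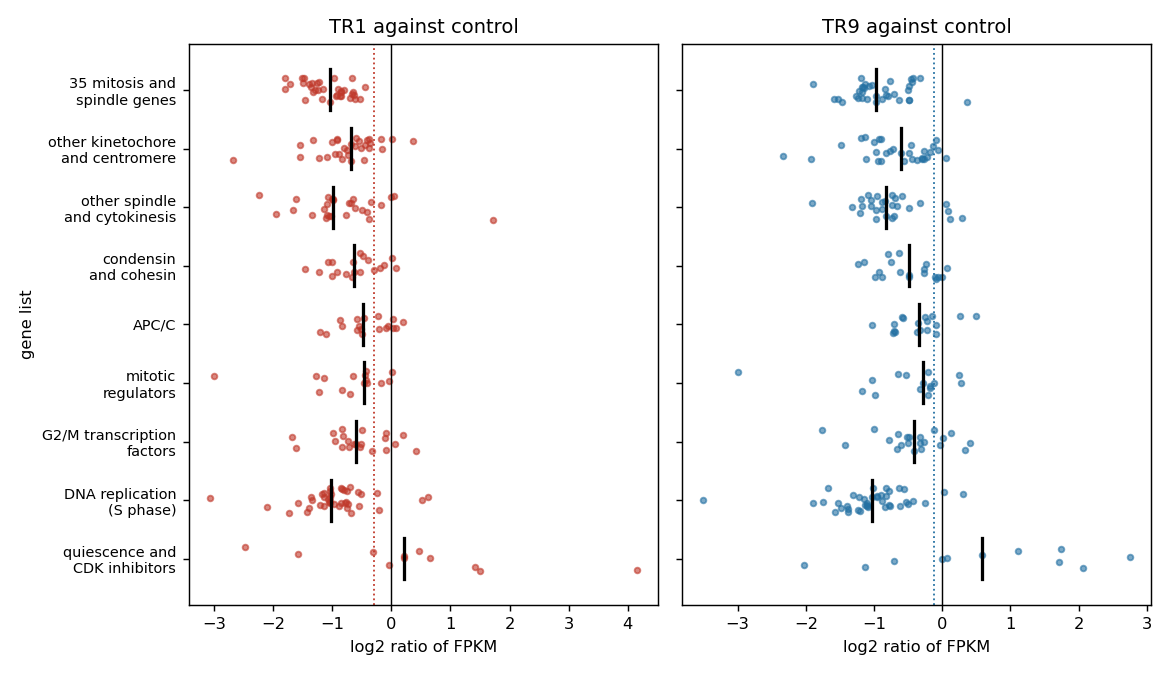
Log2 ratio of FPKM to control for each gene of the 35 mitosis and spindle genes and of 8 related lists, in TR1 (left) and TR9 (right). Each point is 1 gene, thick bars are list medians and dotted lines the median of all genes (−0.29 and −0.12). The mitosis list (−1.04 and −0.98) and the DNA replication list (−1.02 and −1.03) have the lowest medians, and the lone point at −3.00 among the mitotic regulators is Ccnb3, with 2 counts in control and 0 in TR1 and TR9.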

How the data were processed

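The 3 libraries were grouped by their labels. Reads were filtered, mapped with BWA and Bowtie (mm9 in the submitters' processing notes) and quantified with RSEM; versions are not given in the sources used here. The authors deposited for each gene the expected count, unnormalized and not always whole, the FPKM, scaled for length and library total, and a length, not used in any test. Genes absent from a library's file count as 0 there.

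Of 16742 gene IDs, 16698 matched a RefSeq symbol. Rounded expected counts of 2 libraries entered a two-sided exact conditional test for Poisson counts (scipy 1.17.1), adjusted by Benjamini-Hochberg over all genes listed in either. Log2 ratios are of FPKM, with values under 0.01 set to 0.01, and intervals are exact (Clopper-Pearson) at 95% from the counts. Of the 35 genes, 10 had counts that were not whole within 0.005. Reads of 1 gene fell to as few as 47, where intervals are widest.

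The members and lists were chosen with earlier results of these data known. Named were all 35 members, from each other list up to 3 genes called alike in TR1 and TR9, taken by mean absolute log2 ratio and with at least 10 counts in a library, Foxm1, Mybl2, E2f1, Lin54 and the fusion genes. Nek6, Nfya, Ccnb3, Cdkn1a, Cdkn1c and the markers at 0 were named after their values were seen. Pax5, Hbb-bt, Ccna1 and Azu1 have no value here. A listed marker gene is not reported here. Promoter coordinates are from RefSeq GRCm38.p6 and were not joined to mm9.

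Alternatives were TMM (edgeR 4.0.16, R 4.3.3), median of ratios (DESeq2 1.42.0) and TPM scaling, a pseudocount of 1 FPKM, a minimum of 10 counts, edgeR's exact test at an assumed coefficient of variation of 0.2, a log2 limit of 0.5, ratios of counts, and lists without genes of unwhole counts or without Top2a and Mki67. The steps were tested on simulated data. Scripts ran in Python 3.11.15 with pandas 2.3.3, numpy 2.4.6 and, for plots, matplotlib 3.10.9.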

Additional observations from a re-analysis of the deposited data

Results flagged for a closer look

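None of the 35 mitosis genes was a DEG between the leukemias, beside 6.65% of 15706 genes tested. Among the genes named outside the marker lists, 5 were DEGs in TR9 against TR1 by the Poisson test of counts, which compares 2 libraries. Of these, Cdkn1a, Cdkn1c and Nek6 were named after their values were seen, so their number cannot be read as a share. Rara, at 1168 counts in TR1 and 359 in TR9, had a log2 ratio of −1.59. Cdkn1c, the p57 gene, at 3, 55 and 12 counts in control, TR1 and TR9, had −2.08. Cdkn1a, the p21 gene, at 47, 66 and 144 counts, had 1.25, and Klf2 had 1.26. Nek6, at 117 counts in TR1 and 34 in TR9, had −1.66. The CDK inhibitor genes p21 and p57 thus differed between TR9 and TR1 in opposite directions. They are not all the listed genes that differed. In TR9 against TR1, 1 further gene was upregulated in the list of G2/M transcription factors and 1 in that of DNA replication. Groups of 1 library allow no check for outlying samples.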

How the results depend on the processing

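Against a median log2 ratio of −1.04 for the members in TR1, TMM scaling gave −0.79, the median of ratios −0.80 and TPM scaling −1.26. When variation between samples was assumed in edgeR, 2 members were downregulated in TR1 and 1 in TR9, in place of 18 and 17. Of all genes, 6.09% and 5.09% were downregulated at that setting. At a log2 limit of 0.5, 34 members were downregulated in TR1 and 27 in TR9, against 23.0% and 18.9% of all genes. In TR9 against TR1, 2 members, Cenpf and Prc1, were upregulated at that limit, against 9.14% of all genes. Below 0 in TR9 against TR1 were 8 members, but 16 with TMM, 14 with the median of ratios and 5 with TPM scaling. By TPM, the summed level was 38.4% of control in TR1 and 47.4% in TR9. By CPM without Top2a and Mki67 it was 48.0% and 53.9%. No value tried reversed the direction of a called member. No paired analysis was possible because each group has 1 library, and for the same reason no replicate could be left out. Depth limits Pttg1 and Cdc25c most, with under 100 counts in each library.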
